A study of Rattus norvegicus with 10 samples.

Results

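The genes described here are 6 ligands of the epidermal growth factor (EGF) family, Hbegf, Areg, Ereg, Tgfa, Btc and the neuregulin gene Nrg1, and the 4 receptors of the ERBB family, Egfr, Erbb2, Erbb3 and Erbb4. They were taken by gene name from RNA sequencing tables that hold 39784 gene names, and all 10 were found, each on 1 row. The cells were neonatal rat cardiomyocytes, the contractile cells of the newborn rat heart, of wild type genotype and grown in medium with fetal bovine serum. They overexpressed either of 2 forms of YAP, the coactivator held back by the Hippo pathway. The treatment labels read Ad-Xon-YAP5SA for the first group (2 libraries) and Ad-Xon-YAP5SA-S94A for the second (2 libraries). YAP5SA is an activated YAP in which inhibitory phosphorylation sites carry serine-to-alanine changes, and the S94A form carries a further change that disrupts binding to the TEAD transcription factors. Both groups therefore overexpressed an activated YAP. No library of untreated or GFP-expressing cells entered the comparison, so each difference below is one between the 2 YAP forms. The series holds 10 samples, of which 6 are CUT&RUN samples and were not analysed here.

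The EGF-family ligands are made as membrane-anchored precursors, and metalloproteinases of the ADAM family cut them free to act on the same or neighbouring cells. HB-EGF, amphiregulin, epiregulin, TGF-alpha and betacellulin bind EGFR, some of them also ERBB4, while neuregulin binds ERBB3 and ERBB4. ERBB2 binds no ligand of its own and acts as the preferred partner in receptor pairs. In the heart, neuregulin from the endothelium signals to ERBB2 and ERBB4 of the cardiomyocyte, a route known for its part in growth and survival of the muscle.

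The libraries held 4.02 to 5.10 gigabases of aligned sequence, as the ratio of the deposited coverage to FPKM gives it, and YAP5SA replicate 2 was the shallowest. All 10 cardiomyocyte markers were detected. TPM is transcript abundance per length, scaled to a fixed sum in every library. Summed, the markers reached 29029 to 29594 TPM in YAP5SA and 30935 to 31466 TPM in YAP5SA-S94A. Of these sums Nppa made up 9625 and 9474 TPM in YAP5SA and 3744 and 3714 TPM in YAP5SA-S94A. By the test described below Nppa was the 1 marker called higher, and 6 of the 10 were called lower. The sums therefore do not show an equal cardiomyocyte content. Fibroblast markers reached 6751 to 8532 TPM and 6892 to 7246 TPM, so the cultures also held transcripts of other heart cells. In bulk RNA, fewer cells of a type and less RNA per cell cannot be told apart. Yap1 stood at 105 and 99.1 TPM in YAP5SA and 117 and 121 TPM in YAP5SA-S94A. Both YAP5SA libraries lay slightly lower, without overlap, and the difference of -0.22 on the log2(TPM + 1) scale was not called (limma adjusted p = 0.122). Both forms were overexpressed, and whether their transcripts are counted under Yap1 was not tested. Transcripts of the mitochondrial chromosome made up 7.53% to 10.2% of the YAP5SA libraries and 12.6% or more of each YAP5SA-S94A library, and all 6 ligands were also called with it left out. Ccn1, a TEAD target gene, stood at 522 and 438 TPM against 39.9 and 36.1 TPM.

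All 6 ligand transcripts were higher in YAP5SA, from 1.87-fold for Tgfa to 10.2-fold for Hbegf and 11.1-fold for Ereg by mean TPM. None of the 3 receptors that could be tested was called in either direction. A gene was tested when its mean over the 4 libraries was at least 1 TPM, and called when its Benjamini-Hochberg adjusted p from limma lay under 0.05. Of the 10 genes 9 were tested, 6 were called higher and 0 lower, where 17.4% of all 13420 tested genes were called higher and 15.5% lower. Of these, Btc could be tested only through its level in YAP5SA, and without it 5 of 8 were called higher. The 10 genes were chosen with earlier results of these data known, so these counts are a description. The median difference was 1.35 over the ligands (1.44 without Btc) and -0.25 over the tested receptors, against 0.00 over all tested genes, on the log2(TPM + 1) scale. That scale is used for every difference below, always YAP5SA minus YAP5SA-S94A, and it understates changes of low genes. Values of the groups did not overlap for 8 of the 9 tested genes, where the same held for 68.2% of all tested genes. Biological replicates is the labels' term for the libraries of a group. Nothing there ties them to separate cultures, so the p-values measure the spread between these libraries.

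**Figure D1:**
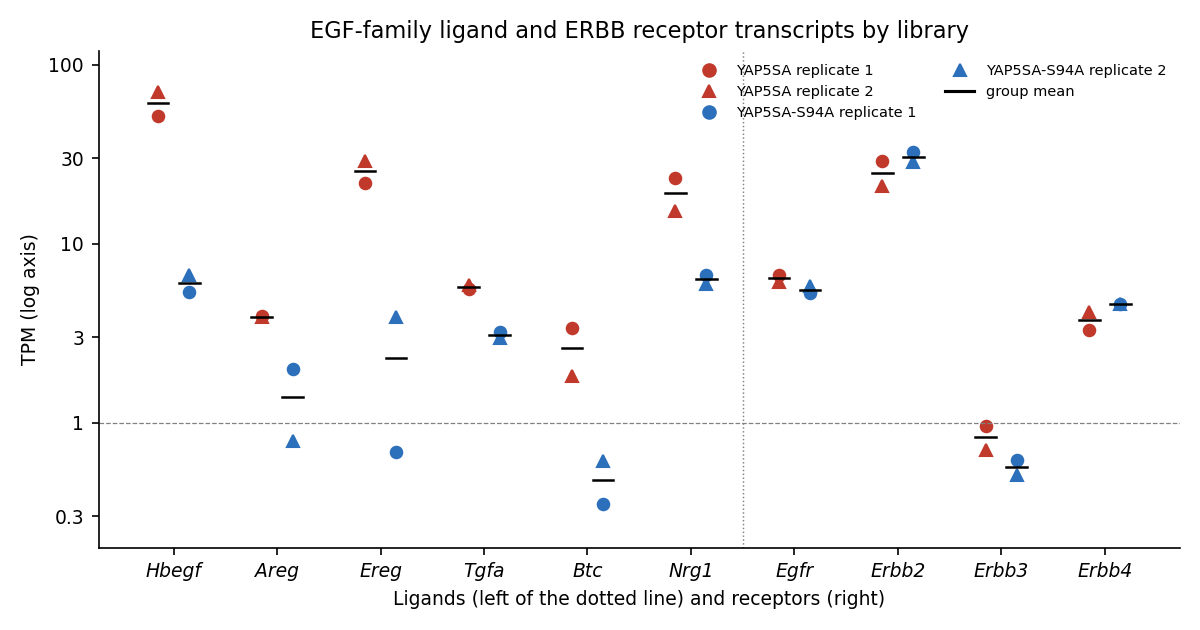
Level of each ligand and receptor transcript in TPM (log axis) in the 4 libraries, with bars at the group means and a dashed line at 1 TPM, the minimum mean for testing. The 6 ligands lie higher in both YAP5SA libraries, from 51.8 and 70.6 against 5.35 and 6.70 TPM for Hbegf to 5.60 and 5.91 against 3.21 and 2.96 TPM for Tgfa. The receptor groups lie closer together, from 0.814-fold for Erbb4 to 1.48-fold for Erbb3 by mean TPM, and overlap only for Erbb2.

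Because every ligand was higher in YAP5SA, the bases just upstream of the ligand starts are shown, with Erbb2 as the receptor of highest level. RefSeq entries of the GRCr8 build were found for 7 of the 10 genes, those other than Ereg, Nrg1 and Erbb3. The windows cover the 250 bases before the annotated start, at chr18:28390221-28390470 on the minus strand for Hbegf, chr14:17265642-17265891 on the minus strand for Areg, chr14:16992418-16992667 on the plus strand for Btc, chr4:120175469-120175718 on the plus strand for Tgfa and chr10:83907351-83907600 on the plus strand for Erbb2. They are written 5′ to 3′ on the gene's strand, and capitals mark matches to the searched motifs.
Hbegf: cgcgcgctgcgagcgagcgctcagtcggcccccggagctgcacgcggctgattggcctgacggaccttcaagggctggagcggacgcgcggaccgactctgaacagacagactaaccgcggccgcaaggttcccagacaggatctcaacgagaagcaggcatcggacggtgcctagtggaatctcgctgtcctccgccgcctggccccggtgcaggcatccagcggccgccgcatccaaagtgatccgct
Areg: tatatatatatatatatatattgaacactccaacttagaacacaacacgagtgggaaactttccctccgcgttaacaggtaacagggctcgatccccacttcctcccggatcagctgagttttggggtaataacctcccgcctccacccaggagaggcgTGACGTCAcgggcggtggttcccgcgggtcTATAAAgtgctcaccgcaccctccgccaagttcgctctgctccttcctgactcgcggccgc
Btc: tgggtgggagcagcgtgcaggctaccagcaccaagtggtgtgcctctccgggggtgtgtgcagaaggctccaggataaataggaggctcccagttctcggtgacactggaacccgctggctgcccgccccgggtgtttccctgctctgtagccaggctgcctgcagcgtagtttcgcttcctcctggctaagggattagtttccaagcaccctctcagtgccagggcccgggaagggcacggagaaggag
Tgfa: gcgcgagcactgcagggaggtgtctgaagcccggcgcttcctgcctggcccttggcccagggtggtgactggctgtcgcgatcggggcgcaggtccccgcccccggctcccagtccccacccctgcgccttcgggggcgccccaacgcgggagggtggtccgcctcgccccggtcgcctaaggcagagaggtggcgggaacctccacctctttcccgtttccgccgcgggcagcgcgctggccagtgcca
Erbb2: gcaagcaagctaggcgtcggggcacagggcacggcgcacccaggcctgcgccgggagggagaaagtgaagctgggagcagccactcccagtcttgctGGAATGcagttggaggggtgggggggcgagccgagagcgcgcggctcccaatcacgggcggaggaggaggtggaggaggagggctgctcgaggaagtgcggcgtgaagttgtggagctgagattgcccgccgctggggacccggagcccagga

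Searched on both strands were the TEAD motif CATTCC, the AP-1 motif TGANTCA, the cAMP response element TGACGTCA and the TATA-box motif TATAAA, none of which overlapped another in these windows. The TEAD motif occurred in 1 of the 7 windows, that of Erbb2, whose transcript was not called, at position -153 from the start, and in 12.1% of 33469 rat promoter windows of the same length. The AP-1 motif occurred in 0 of the 7, against 6.34% of all windows. Areg alone among the 7 held the cAMP response element, at -91, and the TATA motif, at -61, which 1.59% and 12.9% of all windows hold. These are matches of letters in a short window and not measured binding sites, and distal regions were not searched.

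Hbegf encodes heparin-binding EGF-like growth factor, a ligand of EGFR and ERBB4 that is retained by heparan sulfate near the cells that shed it. Its gene lies at chr18:28106284-28116167 on the minus strand in the deposited tables, which use the rn7 build per the submitters' processing notes, as do all gene positions below. Hbegf stood at 51.8 and 70.6 TPM in YAP5SA replicates 1 and 2 and at 5.35 and 6.70 TPM in YAP5SA-S94A replicates 1 and 2. Both YAP5SA libraries were far above both YAP5SA-S94A libraries. The means were 61.2 ± 13.3 and 6.02 ± 0.951 TPM (SD, n = 2 each), a difference of 3.14 (SE 0.19, 95% interval 2.70 to 3.58, limma adjusted p = 5.03e-05). Mean per-base coverage, not scaled for depth, was 106 and 107 in YAP5SA and 10.7 and 13.2 in YAP5SA-S94A, the deepest among the ligands in YAP5SA. Scaled to the same sum in each library, coverage was 62.7 and 85.1 against 6.4 and 8.0. Hbegf was called in each of the 17 alternative settings, with differences from 2.57 to 3.36.

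Ereg encodes epiregulin, a ligand of EGFR and ERBB4 of low affinity, and lies at chr14:17027287-17041062 on the minus strand. It stood at 21.8 and 29.2 TPM in YAP5SA and at 0.685 and 3.90 TPM in YAP5SA-S94A. The YAP5SA libraries were alike and high, and the YAP5SA-S94A libraries were low and unlike each other. Mean per-base coverage, not scaled for depth, was 1.37 and 7.66 in YAP5SA-S94A against 44.4 and 44.3 in YAP5SA. The means were 25.5 ± 5.26 and 2.29 ± 2.27 TPM (SD, n = 2 each), a difference of 3.19 (SE 0.45, 95% interval 2.12 to 4.26, limma adjusted p = 0.00197). The size depended on the YAP5SA-S94A library: the difference was 2.42 with replicate 1 of that group left out and 3.96 with replicate 2 left out. Ereg was called in each of the 17 alternatives, with adjusted p up to 0.0326.

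Areg, the gene of amphiregulin, an EGFR ligand, lies at chr14:16972185-16981443 on the minus strand. It stood at 3.93 and 3.89 TPM in YAP5SA and at 1.99 and 0.795 TPM in YAP5SA-S94A. The YAP5SA libraries were nearly equal and above both others, which again differed from each other. The means were 3.91 ± 0.0280 and 1.39 ± 0.846 TPM (SD, n = 2 each), a 2.81-fold difference in mean TPM and 1.08 on the log2 scale (SE 0.29, 95% interval 0.39 to 1.77, limma adjusted p = 0.0279). Without YAP5SA-S94A replicate 2 the difference was 0.72 (limma adjusted p = 0.168), and the call was also lost without either YAP5SA library and with no filter on low genes. Adjusted p ranged from 0.00166 to 0.168 over the 16 alternatives in which Areg was tested.

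Btc, the gene of betacellulin, which binds EGFR and ERBB4, lies at chr14:16708447-16746961 on the plus strand. It stood at 3.39 and 1.84 TPM in YAP5SA and at 0.353 and 0.610 TPM in YAP5SA-S94A. Both YAP5SA libraries were higher, and they differed from each other. The means were 2.62 ± 1.10 and 0.481 ± 0.182 TPM (SD, n = 2 each), 5.43-fold apart, with a log2 difference of 1.26 (SE 0.31, 95% interval 0.54 to 1.98, limma adjusted p = 0.0187). Btc passed the filter only through the YAP5SA libraries, so it could enter the test only if it was higher there. Without YAP5SA replicate 1 its adjusted p was 0.0512 and with no filter it was 0.0549, within a range of 0.00519 to 0.0549 over 15 alternatives.

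Tgfa, the gene of TGF-alpha, an EGFR ligand, lies at chr4:118618043-118700897 on the plus strand. It stood at 5.60 and 5.91 TPM in YAP5SA and at 3.21 and 2.96 TPM in YAP5SA-S94A. The libraries of each group lay close together and the groups were well apart. The means were 5.76 ± 0.221 and 3.09 ± 0.177 TPM (SD, n = 2 each), a 1.87-fold difference in mean TPM and 0.73 on the log2 scale (SE 0.19, 95% interval 0.28 to 1.18, limma adjusted p = 0.0254). The call was lost with either YAP5SA-S94A library left out (limma adjusted p of 0.103 for replicate 1 and 0.157 for replicate 2), with YAP5SA replicate 2 left out (0.0548) and with no filter (0.0754), in a range of 0.0127 to 0.157 over 16 alternatives.

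Nrg1 encodes neuregulin 1, the ligand of ERBB3 and ERBB4, and spans chr16:59250658-60304519 on the plus strand. It stood at 23.3 and 15.2 TPM in YAP5SA and at 6.70 and 5.98 TPM in YAP5SA-S94A. Both YAP5SA libraries were above both others, with replicate 1 the higher. The means were 19.3 ± 5.73 and 6.34 ± 0.506 TPM (SD, n = 2 each), a 3.04-fold difference in mean TPM and 1.44 on the log2 scale (SE 0.22, 95% interval 0.93 to 1.95, limma adjusted p = 0.00259). Nrg1 was called in each of the 16 alternatives in which it was tested, with adjusted p up to 0.0292.

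The level of Nrg1 was less certain than its direction. Its per-base coverage was 1.91 and 1.35 in YAP5SA and 0.606 and 0.501 in YAP5SA-S94A, the lowest among the ligands in the YAP5SA libraries, although its TPM ranked above those of Tgfa, Areg and Btc there. With coverage scaled to the same sum in each library as TPM, Nrg1 had 14.1 to 20.6 TPM per unit of scaled coverage, where the other 9 genes had 0.827 to 1.35 and the median tested gene had 0.929. Of all tested genes 129 (0.961%) had a higher value than Nrg1. On scaled coverage Nrg1 stood at 1.13 and 1.08 against 0.364 and 0.307, a 3.29-fold difference in the same direction, but below the filter and so not tested there. Which of the deposited columns is nearer to the abundance of Nrg1 transcripts was not tested.

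**Figure D2:**
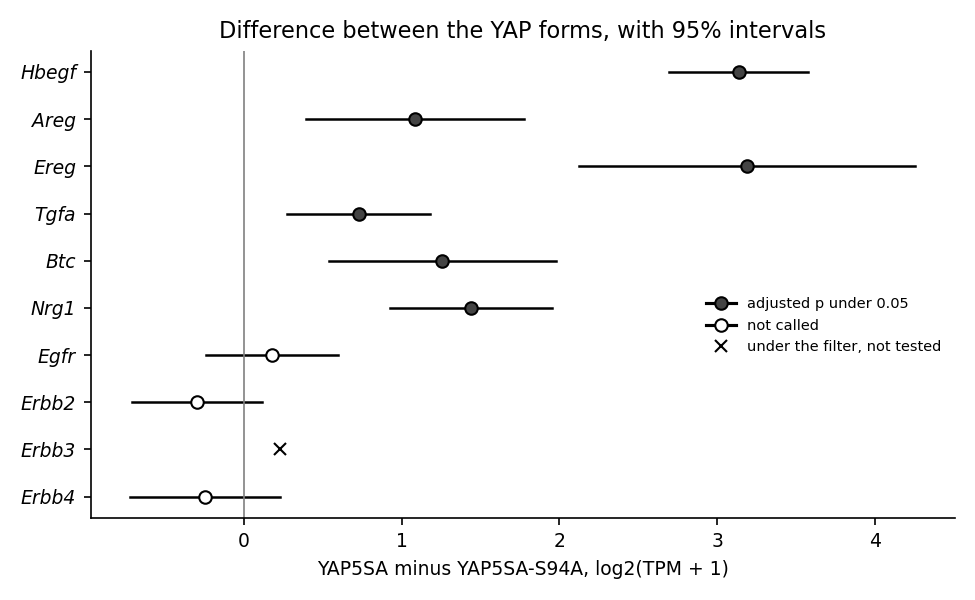
Difference between the YAP forms on the log2(TPM + 1) scale for each gene, with limma's 95% intervals as lines, filled points for adjusted p under 0.05 and a cross for Erbb3, which was not tested. The intervals of the 6 ligands lie above 0, from 0.28 to 1.18 for Tgfa to 2.70 to 3.58 for Hbegf, and those of Egfr, Erbb2 and Erbb4 include 0.

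Egfr, the receptor shared by the first 5 ligands, lies at chr14:91176979-91349722 on the plus strand. It stood at 6.68 and 6.15 TPM in YAP5SA and at 5.31 and 5.79 TPM in YAP5SA-S94A. The YAP5SA libraries were slightly higher, without overlap. The difference was 0.18 (SE 0.18, 95% interval -0.24 to 0.60, limma adjusted p = 0.479), so a rise of up to 0.60 or a fall of up to 0.24 lies within the interval.

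Erbb2, the receptor without a ligand of its own, lies at chr10:83411197-83435078 on the plus strand and had the highest level of the 4 receptors in every library. It stood at 29.0 and 21.0 TPM in YAP5SA and at 32.7 and 28.6 TPM in YAP5SA-S94A. The groups overlapped, with YAP5SA replicate 2 the lowest library. The means were 25.0 ± 5.63 and 30.6 ± 2.92 TPM (SD, n = 2 each), and the difference was -0.30 (SE 0.17, 95% interval -0.71 to 0.11, limma adjusted p = 0.232). Without YAP5SA replicate 1 it was -0.52 and was called lower (limma adjusted p = 0.0356), while without YAP5SA replicate 2 it was -0.07, in a range of adjusted p from 0.0356 to 0.668 over 17 alternatives.

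Erbb4, the neuregulin receptor of cardiomyocytes, spans chr9:69523733-70596743 on the minus strand. It stood at 3.32 and 4.17 TPM in YAP5SA and at 4.60 and 4.60 TPM in YAP5SA-S94A. Both YAP5SA libraries were lower, and replicate 1 of that group lay farthest below. The difference was -0.25 (SE 0.20, 95% interval -0.72 to 0.23, limma adjusted p = 0.391).

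Erbb3, a neuregulin receptor with little kinase activity of its own, lies at chr7:994549-1015876 on the minus strand. It stood at 0.962 and 0.706 TPM in YAP5SA and at 0.616 and 0.509 TPM in YAP5SA-S94A. All 4 libraries were low and the groups did not overlap. Its mean of 0.699 TPM was under the filter, so it was not tested, and its difference was 0.23 on the log2 scale. Per-base coverage was 0.972 to 1.91, and with no filter its limma adjusted p was 0.381.

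The order of the transcripts differed between the groups. In YAP5SA, Hbegf was highest in both libraries, followed by Ereg, Erbb2 and Nrg1, whose ranges overlapped, then by Egfr and Tgfa, then by Areg, Erbb4 and Btc, with Erbb3 lowest. In YAP5SA-S94A, Erbb2 was highest, and Nrg1, Hbegf and Egfr followed, where the range of Hbegf overlapped that of each of the other two. Erbb4 came next, Tgfa lay below it, and Areg, Btc and Erbb3 were lowest, while the wide range of Ereg overlapped those of Tgfa and Areg. This order is by TPM. On scaled coverage Nrg1 lay below Btc and near Erbb3 in YAP5SA and was the lowest of the 10 genes in YAP5SA-S94A. Hbegf stood at 7.75 and 11.5 times the TPM of Egfr in the YAP5SA libraries and at 1.01 and 1.16 times in the YAP5SA-S94A libraries.

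The 6 ligands together reached 110 and 127 TPM in YAP5SA and 18.3 and 20.9 TPM in YAP5SA-S94A. The 4 receptors together reached 40.0 and 32.0 TPM in YAP5SA and 43.2 and 39.5 TPM in YAP5SA-S94A. Ligand transcripts outnumbered receptor transcripts in both YAP5SA libraries, at ratios of 2.75 and 3.95, and were fewer in both YAP5SA-S94A libraries, at 0.423 and 0.531. The exact two-sided permutation test over the 4 libraries gave p = 0.333 for the ligand sum and for the ratio, the smallest p that 2 libraries against 2 allow, and p = 0.667 for the receptor sum. These sums count transcripts and say nothing of the proteins or their cleavage.

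**Figure D3:**
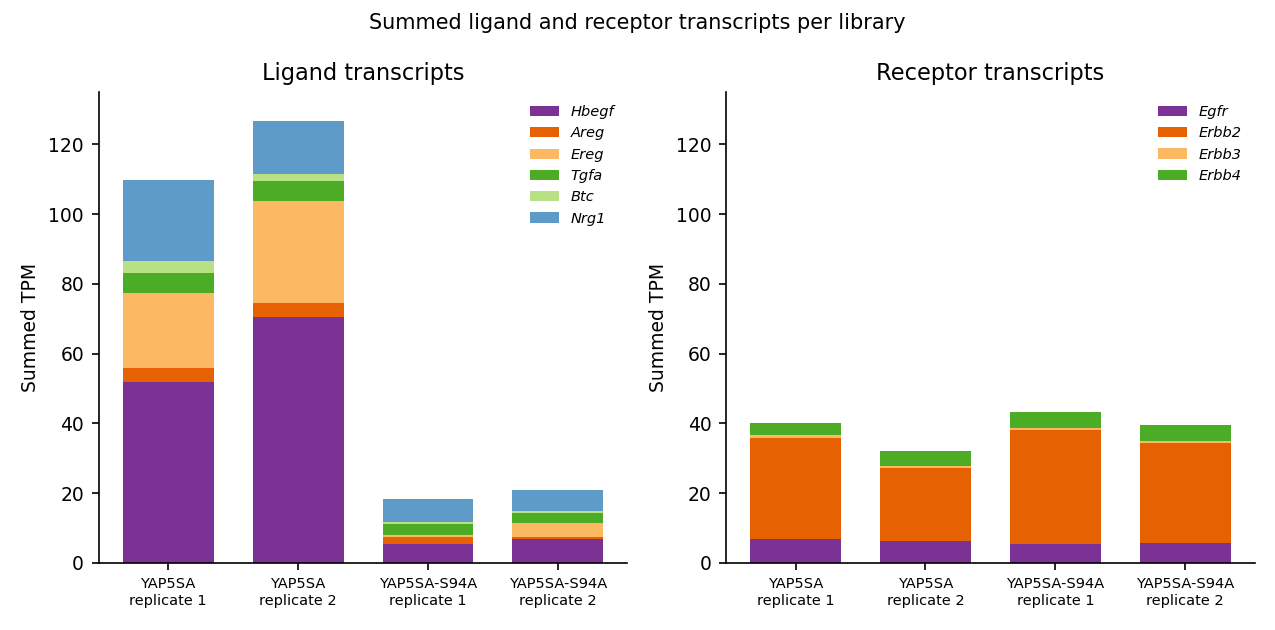
Summed TPM of the 6 ligands (left) and the 4 receptors (right) in each library, with stacked segments for the genes and both axes starting at 0. The ligand bars reach 110 and 127 TPM in YAP5SA against 18.3 and 20.9 TPM in YAP5SA-S94A, while the receptor bars lie between 32.0 and 43.2 TPM.

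The make-up of the ligand sum also differed. Of ligand TPM, Hbegf held 47.2% and 55.7% in the YAP5SA libraries and 29.3% and 32.0% in the YAP5SA-S94A libraries. Nrg1 held 21.2% and 12.0% against 36.6% and 28.6%. Ereg held 19.8% and 23.0% against 3.75% and 18.6%. Hbegf and Ereg thus took a larger share in both YAP5SA libraries and Nrg1 a smaller one, with the YAP5SA-S94A libraries far apart for Ereg. With scaled coverage in place of TPM, an alternative chosen after seeing the data, Nrg1 held 1.07% and 0.800% against 2.61% and 1.70%, and Hbegf held 59.3% and 63.2% against 46.0% and 44.6%. On that scale the shares of Ereg overlapped, at 24.9% and 26.1% against 5.89% and 25.95%. Among the receptors, Erbb2 held 72.6% and 65.6% of receptor TPM against 75.6% and 72.4%, and Egfr 16.7% and 19.2% against 12.3% and 14.7%. The share of Egfr was higher in both YAP5SA libraries and that of Erbb2 overlapped between the groups.

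The other ligand genes of the family were at or near the floor. Egf, the founding member, stood at 1.04 and 0.695 TPM in YAP5SA and 0.703 and 1.34 TPM in YAP5SA-S94A, with overlapping groups. Epgn, the gene of epigen, was listed at 0 in all 4 libraries. The neuregulin genes Nrg2, Nrg3 and Nrg4 did not exceed 0.0640 TPM in any library. None of these 5 passed the filter.

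Of the ligands, 3 lie side by side on chromosome 14, where Btc, Areg, Ereg and Epgn fall within 376.4 kb. The first 3 of them were higher in YAP5SA and Epgn was listed at 0. Within 250 kb on either side of this cluster, a window chosen after the values were seen, 4 other genes were tested. Cxcl1, a neutrophil chemokine gene, was higher by 1.37 (limma adjusted p = 0.00169), and Mthfd2l, a folate enzyme gene, was not called (0.87, limma adjusted p = 0.0529). On the outer sides, Parm1 was lower by 1.22 (limma adjusted p = 0.000355) and the platelet factor gene Pf4 had a difference of -0.83 (limma adjusted p = 0.00360). The calls in the neighbourhood thus went in both directions.

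**Figure D4:**
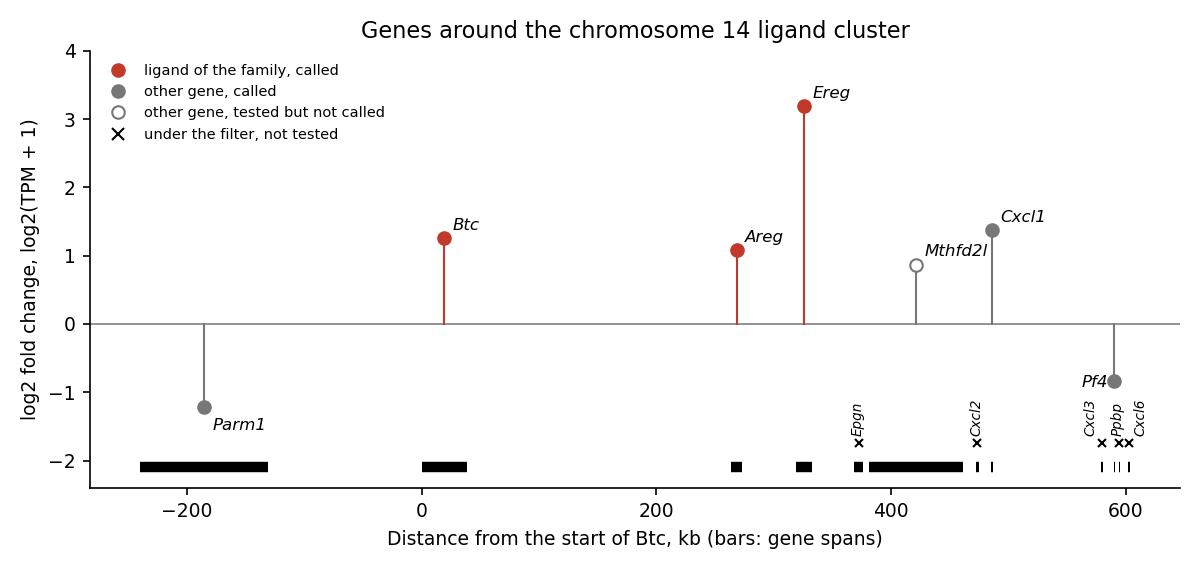
Differences on the log2(TPM + 1) scale of genes around the ligand cluster on rat chromosome 14, by distance in kb from the start of Btc, with black bars for gene spans and crosses for genes under the filter. Btc, Areg and Ereg (1.26, 1.08 and 3.19) and Cxcl1 lie above 0, and Parm1 and Pf4 below.

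Transcripts of the ligand-processing and receptor pathway were compared by lists, whose shares are read against the 17.4% of all tested genes called higher and the 15.5% called lower. These lists, and those of the cell type markers below, were chosen with earlier results of these data known, so their shares are descriptions. Of 9 genes of ligand shedding 1 was called higher and 1 lower (11.1% each, median difference 0.03), and the number called lower was 2 without YAP5SA replicate 1 and 0 without either YAP5SA-S94A library, while that called higher was 2 without YAP5SA replicate 2. Timp3, a metalloproteinase inhibitor, stood at 163 ± 13.6 TPM in YAP5SA and 84.4 ± 2.93 TPM in YAP5SA-S94A (SD, n = 2 each), a difference of 0.94 (limma adjusted p = 0.000656). Adam19, a protease that can cleave neuregulin, had a difference of -0.33 (limma adjusted p = 0.0396) and lost its call in 7 of 17 alternatives, with adjusted p up to 0.299. Adam17, the main sheddase of several EGFR ligands, was named after its values were seen and had 30.5 and 31.3 TPM against 29.1 and 31.4 TPM (difference 0.03, SE 0.12).

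Of 5 partner genes of the ligands and receptors 4 were tested, with 1 higher and 1 lower (25.0% each, median 0.22), and 2 were higher without YAP5SA replicate 2. Cd44, a surface glycoprotein that can carry HB-EGF, stood at 67.1 ± 4.42 TPM in YAP5SA and 26.1 ± 0.0304 TPM in YAP5SA-S94A (SD, n = 2 each), higher by 1.33 (limma adjusted p = 0.000213). Cd9, a tetraspanin that associates with the HB-EGF precursor, had a difference of -0.33 (limma adjusted p = 0.0285), lost without either YAP5SA-S94A library, with adjusted p up to 0.312 over 17 alternatives. The called partners, Cd44 and Cd9, differed in opposite directions.

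Of 13 genes that restrain the receptors 2 were higher and 2 lower (15.4% each, near the shares of all tested genes, median 0.00). Sh3kbp1, an adaptor of CBL in receptor endocytosis, stood at 89.6 ± 6.66 TPM in YAP5SA and 300.5 ± 10.4 TPM in YAP5SA-S94A (SD, n = 2 each), a difference of -1.74 (limma adjusted p = 4.30e-05). Cblb, a ubiquitin ligase, had a difference of -0.47 (limma adjusted p = 0.0409). The phosphatase gene Ptprj (0.88, limma adjusted p = 0.0120) and Rnf41, the gene of an ERBB3 ubiquitin ligase (0.46, limma adjusted p = 0.0205), were higher. Of these 4, only the call of Sh3kbp1 was kept in every one of the 17 alternatives, and the calls of the other 3 were lost without YAP5SA-S94A replicate 2, with adjusted p up to 0.357 for Cblb, 0.0843 for Ptprj and 0.178 for Rnf41. Errfi1, a feedback inhibitor of EGFR, was named after its values were seen and had 16.9 and 15.2 TPM against 14.8 and 17.8 TPM (difference -0.02, SE 0.15).

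Of 23 genes of the adaptors and the Ras-ERK cascade 5 were higher (21.7%) and 2 lower (8.70%), with a median of 0.02, against 17.4% and 15.5% of all tested genes. Nck2, an adaptor (0.69, limma adjusted p = 0.00718), and the GTPase gene Hras (0.68, limma adjusted p = 0.00717) had the largest rises. Gab1 (0.46, limma adjusted p = 0.0330) and Nras (0.45, limma adjusted p = 0.0161), named after their values were seen, were also higher. The adaptor gene Grb2 (-0.32, limma adjusted p = 0.0453) was lower. Leaving out either YAP5SA-S94A library gave 2 called higher and 0 called lower, and leaving out YAP5SA replicate 2 gave 4 called lower, as did leaving out the mitochondrial chromosome.

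Of 19 genes of PI3K-AKT and other effectors 4 were higher (21.1%) and 3 lower (15.8%), near the 17.4% and 15.5% of all tested genes, with a median of -0.16. Pik3cd, a PI3K catalytic subunit, stood at 9.07 ± 0.0741 TPM in YAP5SA and 2.97 ± 0.456 TPM in YAP5SA-S94A (SD, n = 2 each), higher by 1.35 (limma adjusted p = 0.00187). The tyrosine kinase gene Src was higher by 0.75 (limma adjusted p = 0.0181). Also higher were Pik3cb (0.62, limma adjusted p = 0.00810) and Pik3r1 (0.38, limma adjusted p = 0.0475), named after their values were seen. Lower were Stat5b, a transcription factor (-0.87, limma adjusted p = 0.00167), and the kinase gene Akt2 (-0.69, limma adjusted p = 0.0186). Plcg1, a phospholipase gene named after its values were seen, was also lower (-0.68, limma adjusted p = 0.00256). The calls of Src and Akt2 were lost in 5 and 4 of 17 alternatives, with adjusted p up to 0.0799 and 0.0845. The number called higher was 2 without YAP5SA replicate 1 and 2 without either YAP5SA-S94A library, and the number called lower was 5 without YAP5SA replicate 1.

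Of 18 genes known to respond to ERK signalling 9 were higher and 2 lower. These are shares of 50.0% and 11.1%, against 17.4% and 15.5% of all tested genes. The median difference was 0.43 against 0.00. As the list was chosen with earlier results of these data known, these shares are a description and no independent test. Myc, the growth-linked transcription factor gene, stood at 25.6 ± 1.39 TPM in YAP5SA and 8.76 ± 0.218 TPM in YAP5SA-S94A (SD, n = 2 each), higher by 1.45 (limma adjusted p = 0.000369). Dusp4, a phosphatase that inactivates ERK, stood at 68.4 ± 5.69 TPM against 28.1 ± 1.84 TPM (SD, n = 2 each), higher by 1.25 (limma adjusted p = 0.000373). Dusp5, another ERK phosphatase, and Etv1, a transcription factor of the ETS family, went the other way, at -0.60 (limma adjusted p = 0.0228) and -1.31 (limma adjusted p = 0.000674). The call of Dusp5 was lost in 5 of 17 alternatives, with adjusted p up to 0.137, and that of the other 3 in none. Of this list 5 genes were called higher without YAP5SA-S94A replicate 2, and 1 was called lower without YAP5SA replicate 2 and without YAP5SA-S94A replicate 1. Whether the ligand transcripts bear on these genes was not tested.

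Markers of other cell types that also express these ligands and receptors were set beside the result. Of 7 epicardial markers 4 were higher in YAP5SA and 0 lower, with a summed level of 99.0 to 115 TPM against 54.8 to 58.0 TPM, and the called genes were Upk3b (3.75), Krt19 (2.19), Aldh1a2 (0.91) and Msln (0.70). Upk3b, at a mean of 0.577 TPM in YAP5SA-S94A, passed the filter only through YAP5SA. The other 3 were not called, with differences of -0.20 for Wt1, -0.34 for Tbx18 and -0.37 for Upk1b. Of 10 endothelial markers 7 were tested, with Npr3 (1.99) and Tek (1.42) higher and Kdr (-2.22) lower. The remaining tested markers were not called, with differences of -0.10 for Pecam1, -0.52 for Cdh5, -0.11 for Tie1 and -0.06 for Egfl7. The endothelial sum was 54.3 to 55.7 TPM against 45.0 to 45.0 TPM. Of it Npr3 made up 27.0 and 23.9 TPM in YAP5SA and 6.09 and 5.23 TPM in YAP5SA-S94A, so the higher sum rested on this gene. Of 8 immune markers 7 were tested, with 1 higher, Csf1r (1.40), and 3 lower, Lyz2 (-0.72), C1qa (-0.68) and Cd68 (-0.60). The immune sum was 543 to 565 TPM against 843 to 847 TPM. Most of it was Lyz2, at 438 and 428 TPM in YAP5SA and 714 and 710 TPM in YAP5SA-S94A. Of 8 smooth muscle and pericyte markers 1 was higher and 1 lower, with a sum of 296 to 334 TPM against 319 to 345 TPM. Fibroblast markers, whose sums overlapped between the groups as given above, had 0 of 9 higher and 2 lower. Cardiomyocyte markers had 1 of 10 higher and 6 lower. Read against the 17.4% and 15.5% of all tested genes, the shares called higher and lower were 57.1% and 0% for epicardial markers. They were 28.6% and 14.3% for endothelial, 14.3% and 42.9% for immune, and 12.5% each for smooth muscle and pericyte markers. Fibroblast markers had 0% and 22.2%, and cardiomyocyte markers 10.0% and 60.0%. The part of these cell types in the ligand differences was not tested. Schwann cells, known for neuregulin and ERBB3 signalling, had marker sums of 3.05 to 5.08 TPM against 6.25 to 6.57 TPM, with the defining gene Sox10 at 0.0905 to 0.188 TPM.

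The genes whose profile lay nearest to that of the most abundant ligand and receptor were ranked by Euclidean distance over the 4 libraries, on log2(TPM + 1) centred for each gene. Genes with provisional names, such as those starting with LOC or RGD, were left out of the ranking. Nearest to Hbegf were Gpc5, the gene of a glypican (distance 0.17), Klhl41, a sarcomere-associated gene of striated muscle (0.19), and the neurotrophin gene Bdnf (0.28). Klhl41 stood at 260 and 307 TPM in YAP5SA and 31.6 and 35.9 TPM in YAP5SA-S94A, and Bdnf at 27.5 and 28.9 TPM against 1.88 and 2.87 TPM. Gpc5 stood at 11.9 and 15.5 TPM against 0.379 and 0.955 TPM, so it entered the ranking only through its level in YAP5SA. Nearest to Erbb2 were Faap100 (0.02), Midn (0.02) and Plbd2 (0.03). With 4 libraries in 2 groups, such nearness rests on few values.

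**Figure D5:**
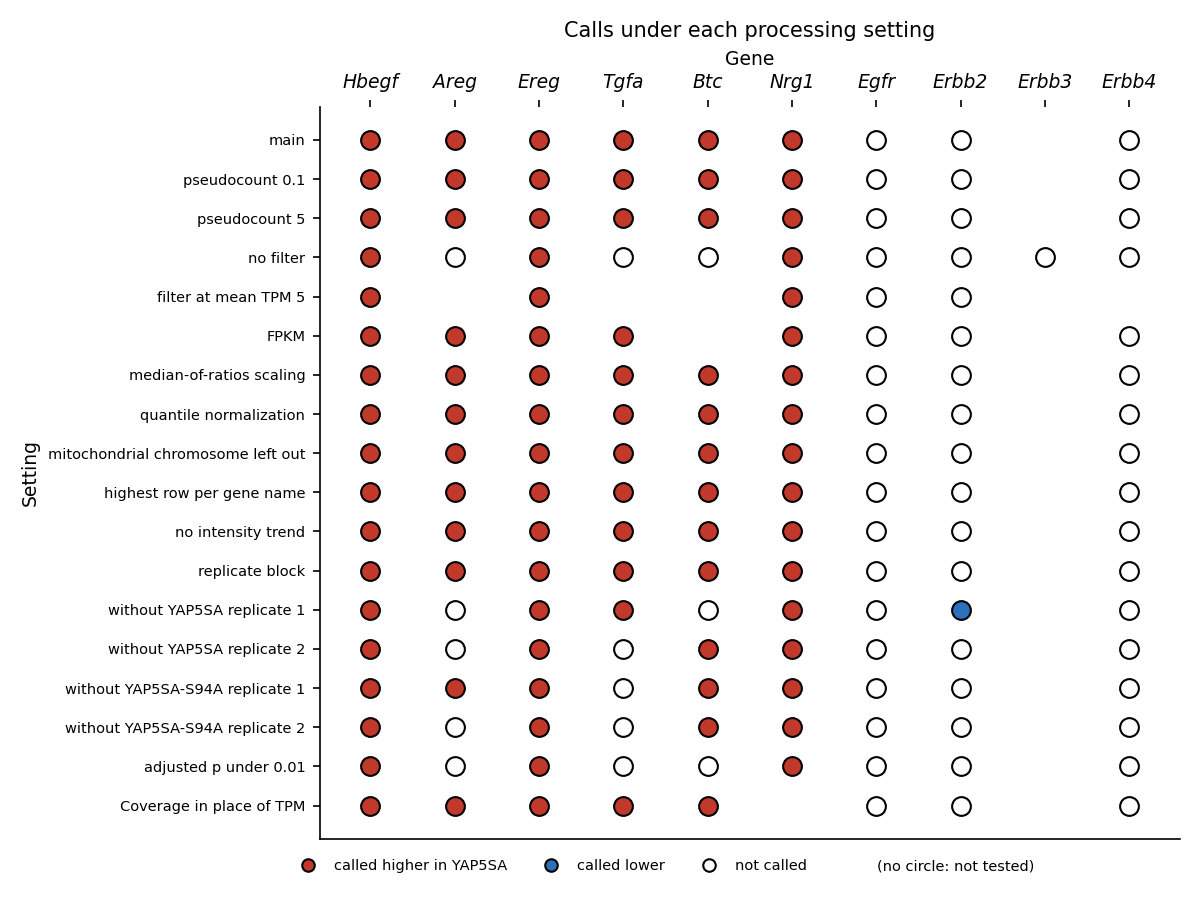
Calls for each gene (columns) under the main and each alternative setting (rows): red circles mark genes called higher in YAP5SA, blue genes called lower, open circles genes tested and not called, and no circle a gene not tested. Hbegf and Ereg are red in every row and Nrg1 in every row in which it was tested, Areg, Tgfa and Btc lose their call in some, and Erbb2 turns blue without YAP5SA replicate 1.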

How the data were processed

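RNA sequencing was available for 4 libraries, 2 of YAP5SA and 2 of YAP5SA-S94A. The labels describe poly(A) RNA and directional libraries, and the tools listed in the submitters' processing notes include StringTie 2.2.1, HISAT2 2.2.1 and fastp, with rn7 as the rat build. The deposited tables had 40903 rows. The TPM values were computed by the authors, as were the FPKM values, and the Coverage column, per the file headers, gives per-base coverage of each gene, not scaled for depth. Read counts were not used here. Whether the strand was used is not given in the sources used here; the rows that overlap Nrg1, Erbb2 and Erbb4 were at 0 TPM in every library.

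Rows that share a gene name were summed. The moderated test of limma 3.58.1 (R 4.3.3) was run with an intensity trend on log2(TPM + 1) for the 13420 genes whose TPM averaged 1 or more, with 2 residual and 5.09 prior degrees of freedom, Benjamini-Hochberg adjustment over all tested genes and a threshold of 0.05. The fitting script was tested on simulated data. Single sums were tested with the exact permutation test. Intervals are limma's at 95%. Tables were made with Python 3.11.15 and pandas 2.3.3.

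The members and gene lists were chosen with earlier results of these data known. Named are all members, up to 2 called genes in each direction per list by size of difference, the 3 nearest genes to the most abundant ligand and receptor, Yap1, Ccn1 and the listed markers; others are given as named after their values were seen. Some genes of the lists are not reported here. Alternatives were 2 other pseudocounts, other filters, FPKM, scalings, no trend, a stricter threshold, the replicate number as a block, each library left out in turn, and coverage in place of TPM.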

Additional observations from a re-analysis of the deposited data

How the results depend on the processing

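No difference of the 10 genes changed sign in those of the 17 alternatives in which it was tested. The number of these genes called higher, 6, was 3 with no filter, 3 with a filter at a mean of 5 TPM, where the lower ligands were not tested, and 3 at an adjusted p under 0.01, and each time these were Hbegf, Ereg and Nrg1. Leaving out each library in turn gave 4 to 5 called higher and 0 to 1 called lower, the latter being Erbb2 without YAP5SA replicate 1. Over all tested genes, leave-one-out gave 1312 to 2739 called lower, the lowest values being 1312 and 1314 when replicates 1 and 2 of YAP5SA-S94A were left out. An adjusted p under 0.01 gave 1439 higher and 1046 lower. In these fits the group with 1 library left is assumed to vary like the other. The cause of the changes without single libraries was not tested.

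Coverage in place of TPM, chosen after seeing the data, moved the mean share of Hbegf in the ligand sum to 61.3% in YAP5SA and 45.3% in YAP5SA-S94A and that of Nrg1 to 0.935% and 2.15%, and the ratio of the ligand sums from 6.03 to 7.50. Of 120 summary values under an alternative 107 stayed within the limits set for a change and 13 moved.

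Same-numbered libraries shared only a number in the labels. Their deviations correlated at r = 0.101 over 13420 genes (across genes, which are not independent), with 2 pairs. With the replicate block 2726 genes were called higher and 2593 lower, and of the 10 genes the same count of 6 was higher and 0 lower. Per-base coverage under 2 in some library limits the levels of Erbb3, Btc, Areg, Nrg1 and Ereg, and 2 libraries a group limit every interval.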
